A study of Mus musculus with 6 samples.

Results

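The comparison described here is that of Dusp2 knockout (Dusp2KO) with wild-type (WT) CD8+ T cells in the CD44lo fraction of a stimulated culture, with 1 RNA-seq library per genotype, that is 2 of the 6 libraries of the series. Genes were kept where the higher of these 2 libraries had 5 FPKM or more (fragments counted for a gene, relative to its length and to library depth), which left 6563 of 18122 rows. Of these, 5983 reached 5 FPKM in both libraries, 230 in Dusp2KO alone and 350 in WT alone. The CD8+ T cells were taken from lymph nodes of WT or Dusp2-/- mice. All cells were cultured for 18 h with coated anti-CD3 antibody and anti-CD28 antibody, each at 1 µg/mL, and with the cytokines IL-4 at 20 ng/mL and IFN-α at 50 ng/mL, a mixture meant to give virtual memory T cells, and were then sorted into a very high CD44 fraction (CD44hi, 2 libraries per genotype) and a CD44lo fraction. The treatment text of the labels names Cd4-Cre Rpa1fl/fl mice in place of Dusp2-/- mice. No age of the animals is given there.

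Dusp2 encodes a nuclear phosphatase that is induced by T cell receptor (TCR) signals and removes phosphate from MAP kinases such as ERK. Virtual memory CD8+ T cells carry memory markers, CD44 among them, without having met a foreign antigen, and type I interferon and IL-4 are among the cytokines known to favour them. Cells that stay CD44lo after stimulation share low CD44 with naive cells, which hold growth and effector genes low until TCR and costimulatory signals release them. The CD44lo cells here had been given such signals in culture.

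The labels were met by the data at the genes that define the groups. Dusp2 had 0 reads in Dusp2KO CD44lo against 11811 reads (116 FPKM) in WT CD44lo. Set against the floor of 3 reads, it was at least 1845-fold lower in Dusp2KO. Rpa1, a subunit of the single-stranded DNA binding protein RPA, was at 28.2 FPKM in Dusp2KO and 27.4 FPKM in WT. Cd44 was at 1.33 and 1.43 FPKM in these libraries and at 65.3 to 79.9 FPKM in the CD44hi libraries. The CD8 chains Cd8a (358 and 352 FPKM) and Cd8b1 (605 and 523 FPKM) were abundant in Dusp2KO and WT CD44lo, while Cd4 had 0 reads in each.

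Recovered reads came to 23591637 for Dusp2KO CD44lo and 50309752 for WT CD44lo, so the knockout library was the shallowest of the 6, and the others ran to 56076961. With 1 library per genotype, a CD44lo difference has no replicate check and no p-value. Where 2 levels stand side by side, Dusp2KO comes first. Differences are given as Dusp2KO minus WT as log2(FPKM + 1), a scale on which changes of low genes come out too small, and intervals of ratios are exact 95% intervals for counting error only. In bulk RNA, fewer cells of a type and less RNA per cell cannot be told apart.

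Gene length moved with the difference. From the shortest to the longest sixth of the genes, the median CD44lo difference went from 0.15 through 0.08, 0.03, -0.02 and -0.10 to -0.21, and across genes the Spearman correlation with length was -0.39. The 2 WT CD44hi libraries, which share a genotype and a fraction, also differed by length (rho = -0.38), and the 2 Dusp2KO CD44hi libraries did not (rho = -0.02). These 2 values are for replicate 2 minus replicate 1, an order that sets their sign. The medians of the WT pair went from 0.10 in the shortest sixth to -0.10 in the longest. Each gene was therefore also set against the 200 genes nearest to it in level and length, whose median difference was subtracted. The correlation of this adjusted difference with length was -0.03. The CD44hi genotype difference ran the other way, with a correlation with length of 0.27. Its medians went from -0.16 in the shortest sixth to 0.07 in the longest. CD44hi medians and CD44hi limma calls below are not adjusted for length. List medians of CD44lo are given both ways below, and differences of single genes are as measured unless said otherwise. List counts at 0.5 are as measured too. Set against like genes they moved by at most 1 in a direction, except for mitochondrially encoded genes, TNF family genes and respiratory chain subunits (2 higher as measured and 0 against like genes). What caused these length trends was not tested.

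**Figure D1:**
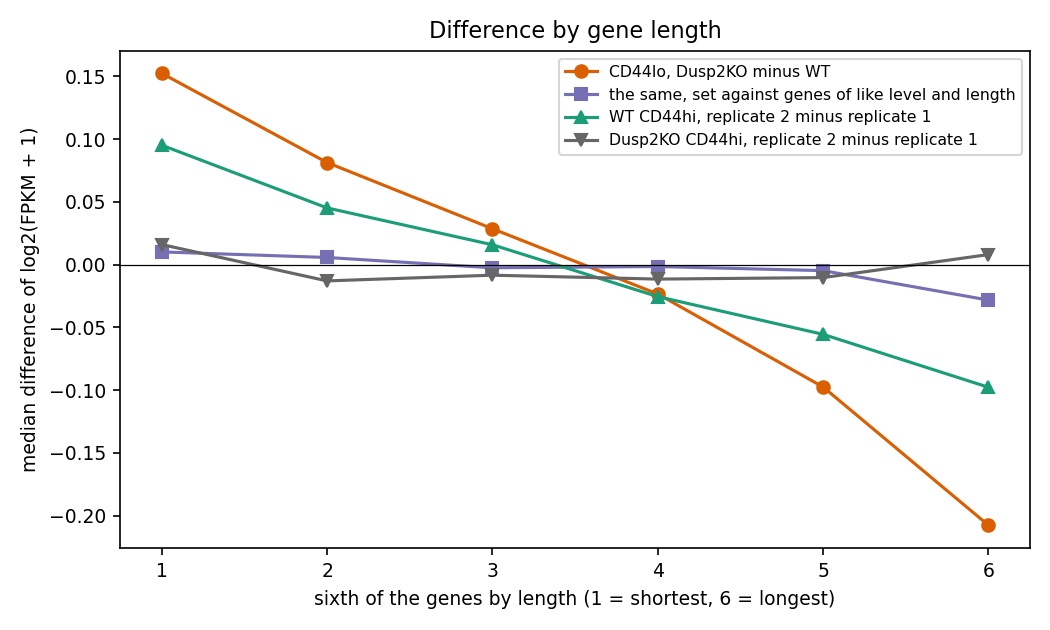
Median difference of log2(FPKM + 1) (vertical axis) in each sixth of the genes by length (horizontal axis) for the CD44lo comparison, the same set against like genes, and the 2 replicate pairs of CD44hi. The CD44lo line falls from 0.15 to -0.21, and that of the WT pair, replicate 2 minus replicate 1, from 0.10 to -0.10. The direction of a replicate line depends on this order. The adjusted line lies near 0.

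The median difference over all 6563 genes was -0.01, and the middle of the distribution lay between -0.21 and 0.18. Of these genes, 41 (0.625%) were 2-fold or more higher in Dusp2KO and 46 (0.701%) were 2-fold or more lower. Set against like genes, 36 (0.549%) were higher and 46 (0.701%) lower, and 73 genes were past 2-fold by both measures. At 0.5 log2 units, the threshold used for gene lists below, 244 genes (3.72%) were higher and 422 (6.43%) lower, or 218 (3.32%) and 273 (4.16%) set against like genes. Libraries of the same genotype and fraction differed less at this size. Between the 2 Dusp2KO CD44hi libraries 0.0611% of genes were 2-fold apart, and between the 2 WT CD44hi libraries 0.182%. Genes just inside the level rule (5 to 5.5 FPKM in the higher library, 246 genes) had a median difference of -0.06, and those just outside it (4.5 to 5 FPKM, 290 genes) one of -0.05.

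**Figure D2:**
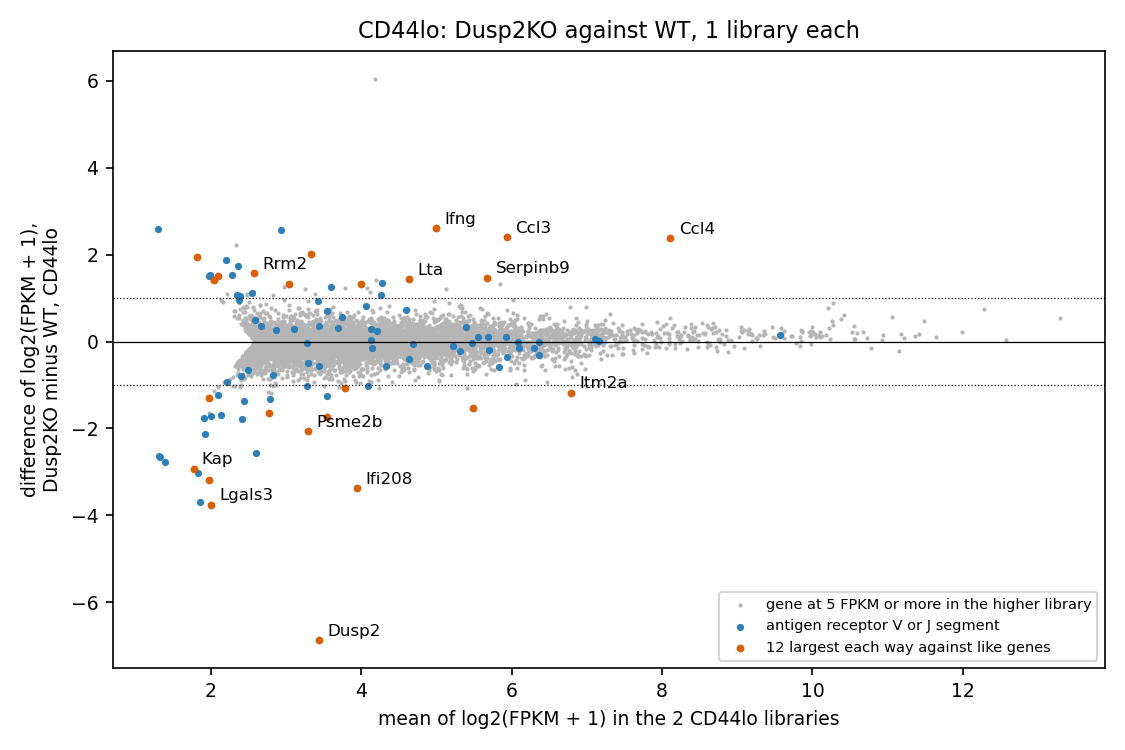
CD44lo difference of log2(FPKM + 1), Dusp2KO minus WT (vertical axis), against the mean log2(FPKM + 1) of both libraries (horizontal axis), 1 point per gene. Ifng, Ccl3 and Ccl4 stand above 2 at moderate to high levels, Dusp2 at -6.87 and Lgals3 at -3.75 stand lowest among the labelled genes, and antigen receptor segments spread both ways at low levels.

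Effector genes had the highest median among the lists with 5 or more members. Of 21 members among the list of effector and cytotoxic genes, 13 were higher in Dusp2KO CD44lo by 0.5 or more and 0 lower (7 of them by 2-fold), with a median of 0.67 (0.57 set against like genes) beside -0.01 over all genes. In CD44hi, 9 of the 21 rose and 4 fell in the limma test, with a median of 0.14. Over all 6563 genes 11.6% rose and 16.9% fell in that test, the background for the CD44hi counts of each list below. Ifng, the gene of interferon-γ, was at 77.7 FPKM in Dusp2KO and 11.9 FPKM in WT CD44lo, and at 571 and 601 FPKM in Dusp2KO against 217 and 186 FPKM in WT CD44hi. Knockout exceeded WT within each fraction, but the Dusp2KO CD44lo value stayed below both WT CD44hi values. The ratio in CD44lo was 6.50 (6.00 to 7.05), a difference of 2.60 (2.43 set against like genes).

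The chemokine genes Ccl3 and Ccl4, whose products attract leukocytes, followed. Ccl3 was at 139 and 25.5 FPKM in Dusp2KO and WT CD44lo, and in CD44hi at 279 and 289 FPKM (knockout) against 98.5 and 92.2 FPKM (WT). Ccl4 was at 628 and 120 FPKM in CD44lo, and in CD44hi at 691 and 741 FPKM (knockout) against 313 and 288 FPKM (WT). Both genes were higher in Dusp2KO CD44lo than in either WT CD44hi library, and their CD44lo differences were 2.40 and 2.37. The related chemokine gene Ccl9 was at 5.75 and 1.51 FPKM in CD44lo (difference 1.43). Xcl1, a chemokine that attracts cross-presenting dendritic cells, was at 1592 and 1116 FPKM (difference 0.51, or 0.34 set against like genes).

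Cytokines of the TNF family that activated T cells secrete were also higher. Lta, the gene of lymphotoxin-α, was at 39.9 and 14.1 FPKM in Dusp2KO and WT CD44lo, at 33.4 and 37.2 FPKM in Dusp2KO CD44hi and at 14.8 and 12.6 FPKM in the WT ones. Its CD44lo difference was 1.44, and its level in Dusp2KO CD44lo was the highest of the 6 libraries. Tnf was at 24.6 and 10.6 FPKM in CD44lo, and in CD44hi at 13.3 and 14.8 FPKM (knockout) against 10.9 and 8.88 FPKM (WT) (CD44lo difference 1.14), again highest in Dusp2KO CD44lo. Il2, the gene of the T cell growth factor IL-2, lay below the level rule with 53 reads (1.94 FPKM) against 12 reads (0.206 FPKM).

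Cytotoxic genes differed less. Gzmb, the gene of granzyme B, was at 1542 and 904 FPKM in Dusp2KO and WT CD44lo (0.77), and Prf1, the gene of the pore-forming perforin, at 50.0 and 31.1 FPKM (0.67). Fasl, a death ligand, was at 5.17 and 2.26 FPKM (0.92), and Tbx21, the gene of the transcription factor T-bet, at 37.5 and 23.5 FPKM (0.65). The related factor Eomes was not higher, with 73.0 FPKM in Dusp2KO and 92.3 FPKM in WT (-0.33). The granzyme gene Gzma (4.83 and 6.60 FPKM, -0.38) and the cathepsin gene Ctsw (105 and 117 FPKM, -0.16) of the same list lay below 0 as well. The granzyme B inhibitor Serpinb9 was at 84.2 and 29.7 FPKM in CD44lo, and in CD44hi at 174 and 178 FPKM (knockout) against 96.9 and 89.7 FPKM (WT). Its CD44lo difference of 1.47 left the knockout below both WT CD44hi libraries, and its relative Serpinb6b was at 90.1 and 35.3 FPKM in CD44lo (1.33).

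**Figure D3:**
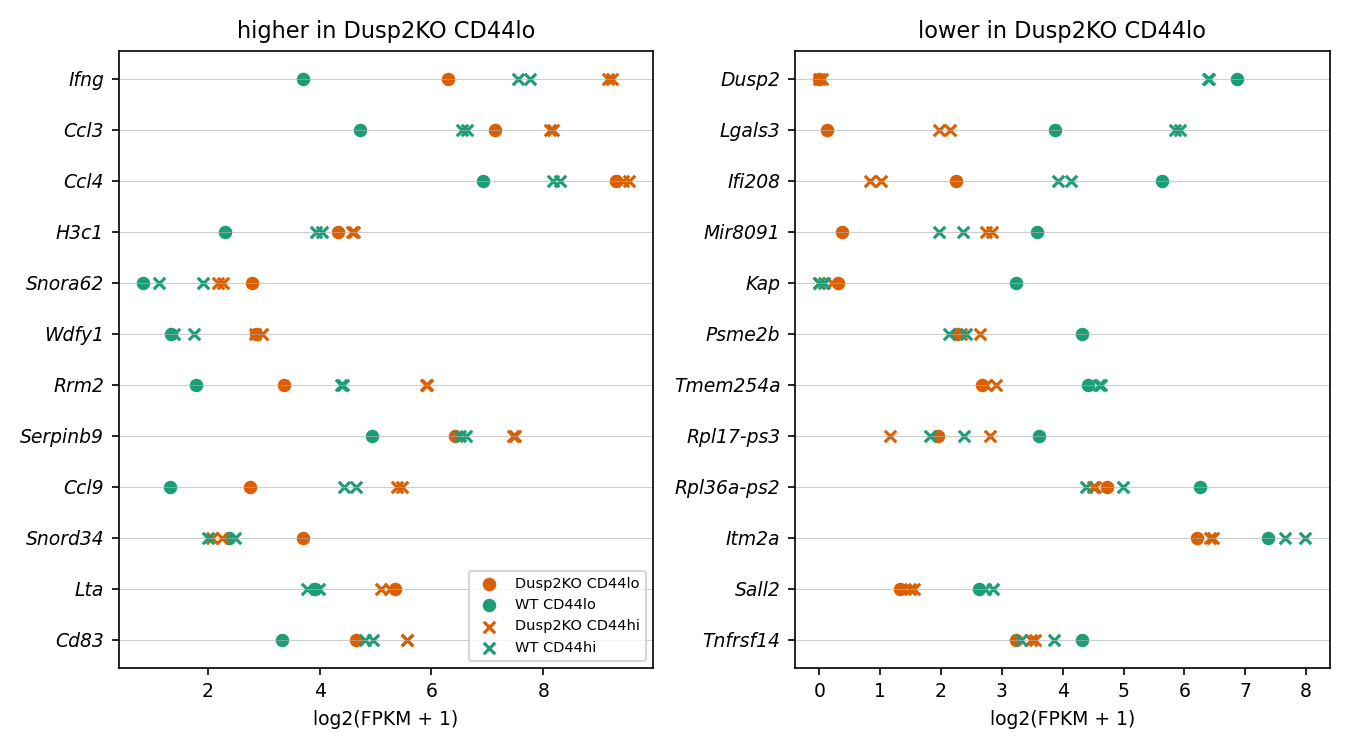
Levels as log2(FPKM + 1) (horizontal axis) in the 6 libraries for the 12 genes with the largest differences each way in CD44lo (vertical axis), ranked against genes of like level and length with predicted genes and receptor segments left out. Circles are CD44lo, crosses CD44hi. Ifng, Ccl3, Ccl4 and Rrm2 are higher in knockout in each fraction, Dusp2, Lgals3, Ifi208, Tmem254a, Itm2a and Sall2 lower in each, and Kap, Psme2b and Rpl36a-ps2 stand apart in the WT CD44lo library alone.

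Among genes that TCR signals induce within hours, 7 of 27 were higher by 0.5 or more and 2 lower, with a median of 0.29 (0.23 set against like genes) and a median of 0.30 in CD44hi. The costimulatory receptor Tnfrsf4, also known as OX40, was at 20.2 FPKM in Dusp2KO and 8.03 FPKM in WT CD44lo (1.23), and Nfkbid, a nuclear member of the IκB family, at 51.8 and 22.0 FPKM (1.20). The nuclear receptor genes Nr4a1 (167 and 95.1 FPKM, 0.80) and Nr4a3 (61.4 and 35.5 FPKM, 0.77), the transferrin receptor gene Tfrc (52.9 and 29.0 FPKM, 0.85) and the IL-2 receptor chain Il2ra (51.4 and 29.8 FPKM, 0.77) were higher as well. Egr1 (0.36), Egr2 (0.29), Egr3 (0.44), Irf4 (0.41) and Myc (0.29), all transcription factors of the early response, were higher by less than 0.5.

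The same list held genes that went the other way. Tnfaip3, which encodes the NF-κB inhibitor A20, was at 28.0 and 60.4 FPKM in Dusp2KO and WT CD44lo, and in CD44hi at 23.2 and 22.5 FPKM (knockout) against 45.1 and 40.4 FPKM (WT). It was lower in knockout in each fraction (CD44lo difference -1.08), and in CD44hi it fell by 0.87 (limma adjusted p = 0.00132). Jun, a subunit of AP-1, was at 46.3 and 92.2 FPKM in CD44lo (-0.98) and fell by 0.57 in CD44hi (limma adjusted p = 0.00456). Cd83, an activation-induced surface protein outside the list, was at 24.2 and 9.07 FPKM in CD44lo (1.32).

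MAP kinase phosphatases and other feedback inhibitors of ERK other than Dusp2 had 8 members, of which 0 were higher and 2 lower by 0.5 or more. Their median was -0.13 (-0.17 set against like genes), and -0.33 in CD44hi, where 1 rose and 5 fell in the limma test. Dusp1, a nuclear MAP kinase phosphatase, was at 10.2 and 19.5 FPKM in Dusp2KO and WT CD44lo (-0.88), and in CD44hi at 5.87 and 6.61 FPKM (knockout) against 16.3 and 15.5 FPKM (WT). Dusp4 was at 6.02 and 9.97 FPKM in CD44lo (-0.64). Dusp5 (45.8 and 37.7 FPKM, 0.27) was on the other side of 0, and Dusp6, a cytoplasmic ERK phosphatase (11.5 and 11.7 FPKM), was near it.

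Genes of DNA replication were higher in Dusp2KO CD44lo with few exceptions. Of 35 members, 33 lay above 0, 10 were higher by 0.5 or more and 0 lower, with a median of 0.30 (0.33 set against like genes). In CD44hi 20 of the 35 rose and 0 fell in the limma test, beside 11.6% and 16.9% of all member genes, with a median of 0.29. Rrm2, the regulatory subunit of ribonucleotide reductase, was at 9.25 and 2.44 FPKM in CD44lo, and in CD44hi at 59.9 and 58.9 FPKM (knockout) against 20.5 and 19.9 FPKM (WT). It was higher in knockout in each fraction, with a CD44lo ratio of 3.78 (3.31 to 4.33) and a difference of 1.57.

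Other replication genes with large differences were Cdc6, which loads the MCM helicase onto origins (5.10 and 2.16 FPKM, 0.95), Dut, which clears dUTP (47.8 and 25.5 FPKM, 0.88), and Cdc45, part of the active helicase (10.7 and 5.83 FPKM, 0.78). The helicase subunits themselves were nearer to 0, with Mcm2 at 53.7 and 52.3 FPKM (0.04) and Mcm5 at 110 and 92.0 FPKM (0.25). Genes of mitosis were mostly below the level rule, and 4 of 34 were members, with Top2a, the topoisomerase of dividing cells, at 7.19 and 5.51 FPKM (0.33). H3c1, a histone H3 gene made in S phase, was at 19.2 and 3.97 FPKM in CD44lo, with 245 and 108 reads (2.02). Outside the list, and seen after their values were known, the histone genes H2bc11 (13.4 and 5.26 FPKM, 1.20) and H4c9 (6.22 and 3.89 FPKM, 0.56) were higher as well, while H1f2 of the list was not (5.53 and 6.52 FPKM, -0.20). Histone transcripts mostly lack the poly(A) tail, so their capture depends on how libraries were made.

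Type I interferon response genes were lower in Dusp2KO CD44lo by small steps. Of 40 members, 35 lay below 0, 6 were lower by 0.5 or more and 0 higher, with a median of -0.24 (also -0.24 set against like genes). In CD44hi 21 of the 40 fell and 0 rose in the limma test (median -0.30). Parp14 (23.1 and 43.5 FPKM, -0.88), Mx2, an antiviral GTPase (5.22 and 9.54 FPKM, -0.76), and Oasl1, a member of the OAS family (19.3 and 28.1 FPKM, -0.52), had large differences, while Isg15, a ubiquitin-like modifier, was at 383 and 388 FPKM (-0.02). Of the 8 members of the Ifi200 family of nucleic acid sensors, 0 were higher and 3 lower (median -0.41, or -0.27 set against like genes).

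Ifi208 of that family stood far from the rest, at 3.77 FPKM in Dusp2KO and 48.5 FPKM in WT CD44lo, and in CD44hi at 1.02 and 0.780 FPKM (knockout) against 14.2 and 16.5 FPKM (WT). Knockout was lower than WT in each fraction without overlap, and the CD44lo ratio was 0.0777 (0.0707 to 0.0852). Its neighbours in the family, Ifi209 (-0.63), Ifi206 (-0.57) and Ifi214 (-0.47), differed far less.

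Promoters of interferon response genes often carry a response element bound by STAT and IRF factors, searched here on both strands as a pair of GAAA runs with any 2 bases between them in the 300 bases around each start site (250 before, 50 after) of RefSeq's GRCm38.p6 models. It was found in 3.49% of 27025 promoters, in 3.62% of the 5219 member genes with an entry, and in 17 of 30 interferon list members with an entry (56.7%). Those 17 had a median CD44lo difference of -0.19 and the 13 without it one of -0.28, or -0.21 and -0.20 set against like genes. The element was found in 4 of 19 effector list members with an entry (21.1%). It stood in 1 of 6 entries among the 12 largest higher genes, that of Serpinb9, and in 2 of 9 among the 12 largest lower, Ifi208 among them. The promoters of Serpinb9 and Ifi208 are shown because these genes lay on opposite sides of the comparison and each held 1 match, in capitals (plus strand, chr13:33004291-33004590 and chr1:173673415-173673714).
Serpinb9: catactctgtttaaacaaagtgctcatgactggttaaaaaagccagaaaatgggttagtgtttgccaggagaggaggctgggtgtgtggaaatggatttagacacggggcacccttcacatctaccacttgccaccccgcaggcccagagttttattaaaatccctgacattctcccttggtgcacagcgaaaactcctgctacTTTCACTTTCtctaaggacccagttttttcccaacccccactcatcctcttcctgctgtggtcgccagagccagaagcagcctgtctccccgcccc
Ifi208: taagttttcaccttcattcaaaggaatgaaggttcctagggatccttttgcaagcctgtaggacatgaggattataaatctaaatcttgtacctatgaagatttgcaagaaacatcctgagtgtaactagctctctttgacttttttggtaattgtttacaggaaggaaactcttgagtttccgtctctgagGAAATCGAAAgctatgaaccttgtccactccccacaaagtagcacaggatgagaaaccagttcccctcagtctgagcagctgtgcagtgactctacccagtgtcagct

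A match describes letters and not a bound site. For replication genes, the E2F-type letters TTTNNCGC were found in 10 of 29 promoters of the list (34.5%), against 10.2% of member genes and 5.27% of all promoters. The 10 genes with a match had a median difference of 0.24 and the 19 without it one of 0.35 (0.21 and 0.36 set against like genes). AP-1 letters (TGANTCA) were in 1 of 19 effector promoters (5.26%) against 4.16% of member genes.

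Genes of naive and quiescent T cells were mostly lower in Dusp2KO CD44lo. Of 29 members 22 lay below 0, 4 were lower by 0.5 or more and 1 higher, with a median of -0.25 (-0.18 set against like genes), and in CD44hi 18 fell and 1 rose in the limma test (median -0.35). Itm2a, an integral membrane protein gene, was at 72.5 and 165 FPKM in Dusp2KO and WT CD44lo, and in CD44hi at 84.3 and 87.6 FPKM (knockout) against 253 and 200 FPKM (WT). All 3 knockout libraries lay below all 3 WT libraries, and the CD44lo difference was -1.17. Klf2, which drives the homing receptors of naive cells, was at 90.7 and 143 FPKM in CD44lo (-0.66), and the growth-restraining genes Sesn3 (7.83 and 14.9 FPKM, -0.85, or -0.53 set against like genes) and Tob1 (-0.80) were lower too. Ccr7 (-0.22) and Tcf7 (-0.26), textbook markers of naive cells, differed by less, and Il7r was on the other side of 0 (0.37).

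Memory and trafficking genes were mixed. Of 12 members of the virtual memory list, 5 were higher by 0.5 or more and 0 lower, with a median of 0.27 (0.28 set against like genes) and -0.05 in CD44hi. With a minimum of 10 FPKM the median was -0.11. Ly6c2, a surface marker of memory cells, was at 78.2 and 46.8 FPKM in Dusp2KO and WT CD44lo (0.73), and in CD44hi at 75.3 and 78.9 FPKM (knockout) against 77.9 and 71.6 FPKM (WT), so that WT CD44lo was the low library. The chemokine receptor Cxcr3 was at 10.8 and 5.89 FPKM in CD44lo (0.78), and in CD44hi at 23.0 and 21.5 FPKM (knockout) against 32.6 and 27.2 FPKM (WT). The knockout was thus the higher genotype in CD44lo and the lower one in CD44hi. Hopx, a homeodomain-only protein of differentiated T cells, was at 6.08 and 3.11 FPKM in CD44lo (0.78), while Il2rb, the IL-15 receptor chain of virtual memory cells, was at 86.4 and 93.6 FPKM (-0.11). Of 18 genes of chemokine receptors and trafficking, 1 was higher and 4 lower (median -0.16, or -0.23 set against like genes). The lower ones included Itgae, the integrin CD103 (12.1 and 26.3 FPKM, -1.06), Ccr4 (5.61 and 11.1 FPKM, -0.88) and Cxcr4 (7.48 and 14.3 FPKM, -0.85). Of 11 inhibitory receptor genes 0 were higher and 3 lower (median -0.12, or -0.15 set against like genes). The 3 lower ones were Ctla4 (-0.72), Nt5e (-0.56) and Tigit (-0.56).

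The other lists had medians between -0.21 and 0.16, or between -0.27 and 0.19 set against like genes. The median of p53 target and apoptosis genes changed sign, from 0.02 to -0.09, and that of glycolysis genes went from 0.16 to 0.07. Of 17 TNF family and costimulation genes 3 were higher and 2 lower (1 and 2 set against like genes), with Tnfrsf14, the receptor HVEM, at 8.45 and 18.9 FPKM (-1.07) and its ligand Tnfsf14 at 40.9 and 26.5 FPKM (0.61, or 0.50 set against like genes). Of 22 p53 target and apoptosis genes 1 was higher, the survival gene Bcl2l1 (38.8 and 26.4 FPKM, 0.54), and 3 lower, among them the death genes Bcl2l11 (24.8 and 42.7 FPKM, -0.76) and Pmaip1 (1.96 and 5.11 FPKM, -1.04). Of 18 amino acid supply genes 2 were higher and 1 lower (median 0.14), of 19 glycolysis genes 1 was higher, the lactate carrier Slc16a1 (43.8 and 27.7 FPKM, 0.64), and of 22 cholesterol synthesis genes 0 passed 0.5 either way (median -0.08). The IL-4 and STAT6 response (8 members, median -0.12), the common γ-chain and STAT5 genes (17, -0.09), the galectins (5, -0.21), the ribosome biogenesis genes (34, 0.09) and the CD8 identity and proximal TCR genes (16, -0.10) each held at most 1 gene past 0.5 in a direction.

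**Figure D4:**
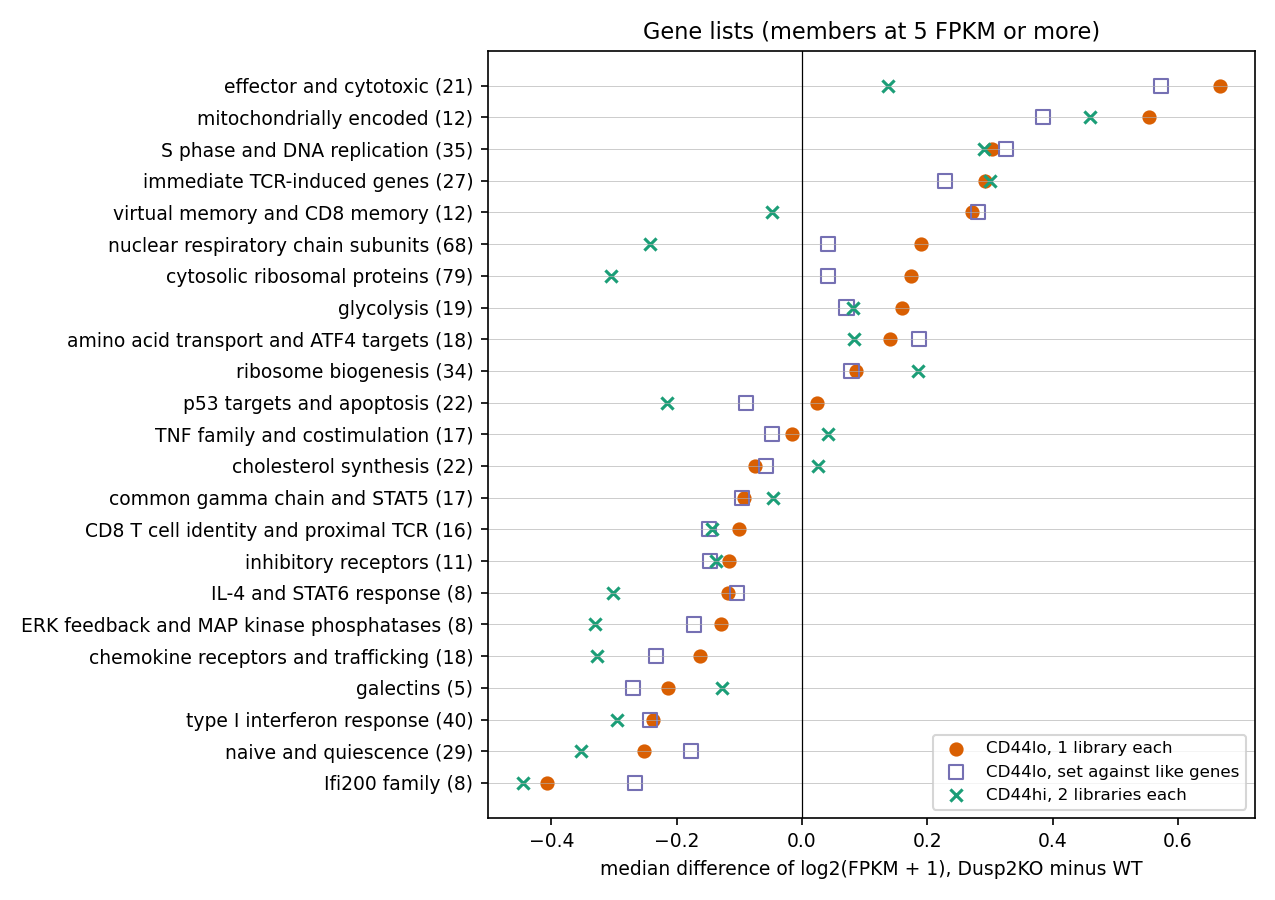
Median difference of log2(FPKM + 1), Dusp2KO minus WT (horizontal axis), of each gene list with its number of members (vertical axis). Filled circles are CD44lo, open squares CD44lo set against genes of like level and length, crosses CD44hi. Among these lists effector genes stand highest in CD44lo at 0.67, and the lists of short genes, ribosomal proteins and respiratory chain subunits, lie above 0 as measured and near 0 against like genes.

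Lists of short genes showed the length trend. Of 79 cytosolic ribosomal protein genes 78 lay above 0 in CD44lo, none past 0.5, with a median of 0.17 that was 0.04 set against like genes and -0.30 in CD44hi. Nuclear respiratory chain subunits (68) had medians of 0.19, 0.04 and -0.24 in the same order. The CD44hi medians are not adjusted for length, and short genes ran lower in that comparison (median -0.16 in the shortest sixth). Genes encoded in the mitochondrial genome were higher in Dusp2KO CD44lo by more than that, with 8 of 12 at 0.5 or more, 0 lower and a median of 0.55. Set against like genes, 2 of 12 were at 0.5 or more and the median was 0.39. Their share of reads was 3.73% in Dusp2KO and 2.51% in WT CD44lo. In CD44hi 8 of the 12 rose in the limma test (median 0.46). This share is also a common sign of RNA or cell quality, and its part in the other differences was not tested.

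The largest lower gene after Dusp2 was Lgals3, the gene of galectin-3. It had 4 reads (0.0902 FPKM) in Dusp2KO CD44lo and 1298 reads (13.7 FPKM) in WT CD44lo, with 3.42 and 2.90 FPKM in the knockout and 56.3 and 60.2 FPKM in the WT libraries of CD44hi. Every knockout library lay below every WT library, and the CD44lo ratio was 0.00657 (0.00179 to 0.0169). Tmem254a was at 5.35 and 20.3 FPKM in CD44lo, and in CD44hi at 5.71 and 6.49 FPKM (knockout) against 23.1 and 23.8 FPKM (WT), and Sall2, a zinc finger gene, at 1.51 and 5.14 FPKM in CD44lo with 1.93 and 1.80 FPKM against 5.56 and 6.20 FPKM in CD44hi. Tmem254a and Sall2 each showed nearly the same gap in both fractions. For Lgals3 the log2(FPKM + 1) differences were also alike (-3.75 in CD44lo and -3.83 in CD44hi). That scale shrinks differences at its low knockout level in CD44lo. These 3 genes lie on mouse chromosome 14 in RefSeq, while Dusp2 lies on chromosome 2. Gzmb and Egr3, described above with the effector and early response genes, lie on chromosome 14 too.

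Chromosome 14 held 29 of the 87 2-fold genes (33.3%) but 254 of the 6563 genes (3.87%). Of the 29, 26 were V or J segments of the TCR alpha locus, many of them so alike that reads may be split between them, so single segments are uncertain. Among 35 alpha V segments 12 were 2-fold higher and 11 lower, 34 had the same sign in CD44hi, and their summed level was similar in Dusp2KO and WT (262 and 219 FPKM). The 17 beta V segments held none past 2-fold in either direction, and 14 of them had the same sign in CD44hi. The share of all genes with the same sign was not counted, and segments that share reads are not independent. Apart from segments, 216 genes of chromosome 14 had 7.41% at 0.5 or more either way set against like genes, beside 6.82% of 6272 genes of other chromosomes, a difference that was not tested.

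Elsewhere, Gm3375 and Wdfy1 showed a similar gap between genotypes in both fractions. The pseudogene Gm3375, outside the naming rule and singled out after its values were seen, was at 147 FPKM in Dusp2KO and 1.24 FPKM in WT CD44lo, and in CD44hi at 146 and 142 FPKM (knockout) against 1.79 and 1.07 FPKM (WT). Wdfy1, an adaptor of endosomal Toll-like receptors, was at 6.26 and 1.53 FPKM in CD44lo, and in CD44hi at 6.80 and 6.18 FPKM (knockout) against 2.39 and 1.64 FPKM (WT). Knockout exceeded WT in every pairing of libraries for both genes. Strain or other differences between the mice and the loss of Dusp2 cannot be told apart in this design. Xist, the RNA of the inactive X, had 0 reads in Dusp2KO and 2 reads in WT CD44lo but 15.1 and 15.5 FPKM in the Dusp2KO CD44hi libraries, against 5 reads in each WT CD44hi library, while the Y-linked gene Ddx3y was at 10.3 to 13.6 FPKM in all 6 libraries. The Dusp2KO CD44hi pair thus differed in Xist from the other 4 libraries, so within CD44hi the genotype and whatever set Xist apart cannot be told apart.

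Some of the largest lower values rested on the WT CD44lo library alone. Kap, the kidney androgen-regulated protein gene, had 4 reads (0.237 FPKM) in Dusp2KO and 302 reads (8.39 FPKM) in WT CD44lo, and no more than 0.150 FPKM in any CD44hi library. Psme2b, a copy of the proteasome activator gene Psme2, was at 3.80 and 19.0 FPKM in CD44lo and at 3.38 to 5.26 FPKM in CD44hi, while Psme2 itself was at 317 and 272 FPKM in CD44lo. The pseudogenes Rpl36a-ps2 (25.4 and 75.5 FPKM) and Rpl17-ps3 (2.86 and 11.2 FPKM) were lower, and their parent genes Rpl36a (290 and 227 FPKM) and Rpl17 (1183 and 1023 FPKM) were not. Copies this alike can trade reads, so these values are uncertain. The nuclear RNA Malat1 was at 10.7 and 23.2 FPKM in CD44lo, and its WT CD44lo value lay within the CD44hi range (16.7 to 39.2 FPKM). Its 2 WT CD44hi libraries, at 39.2 and 18.3 FPKM, lay about as far apart as the CD44lo pair.

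The entry Mir8091 was also among the largest lower values. It had 1 read (0.301 FPKM) in Dusp2KO and 77 reads (10.9 FPKM) in WT CD44lo, a ratio of 0.0277 (0.000693 to 0.159). In CD44hi it was at 5.71 and 6.12 FPKM (knockout) against 4.13 and 2.92 FPKM (WT), all between the 2 CD44lo values. The genotype order in CD44hi was the reverse of that in CD44lo. Its hairpin (GRCm38.p6, plus strand, chr19:41588651-41588789) is printed because the 139-base gene length recovered from the FPKM values is that of the whole hairpin. The mature miRNA stands in capitals within it, and then alone with its seed, bases 2 to 8, in capitals. Reads in such an entry need not come from the mature miRNA.
Mir8091 hairpin: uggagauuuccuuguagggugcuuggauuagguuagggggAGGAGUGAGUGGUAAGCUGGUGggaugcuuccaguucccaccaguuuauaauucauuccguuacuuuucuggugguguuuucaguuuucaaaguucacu
mmu-miR-8091: aGGAGUGAgugguaagcuggug

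Small nucleolar RNAs, which guide the modification of ribosomal RNA, were higher in Dusp2KO CD44lo in 11 of 23 entries by 0.5 or more and lower in 1, with a median of 0.45 (0.42 set against like genes) and -0.08 in CD44hi. They rested on 9 to 78 reads in Dusp2KO and 6 to 86 reads in WT. Of the 23, 22 lie inside a gene that is itself a member, 14 of them inside a ribosomal protein gene, and the 17 host genes differed by -0.05 to 0.51 (median 0.18). Snora62 was at 5.90 FPKM (21 reads) and 0.791 FPKM (6 reads) in Dusp2KO and WT CD44lo while its host Rpsa differed by 0.05, and Snora41 was at 24.8 and 9.97 FPKM (78 and 67 reads) while its host Eef1b2 differed by 0.28. Such RNAs are far shorter than usual fragments, and FPKM of very short entries depends on fragment size, whose part was not tested. J segments, also short, went the other way, with 7 of 14 lower by 0.5 or more and 0 higher (median -0.53).

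The CD44hi libraries share none with the CD44lo pair and give the same genes a replicated comparison, in which the genotypes also differ in Xist as said above. In limma with Benjamini-Hochberg adjustment, 1253 (12.9%) of 9691 genes rose and 1319 (13.6%) fell in Dusp2KO CD44hi. Of the 41 genes 2-fold higher in Dusp2KO CD44lo, 31 (75.6%) rose in CD44hi and 1 fell. Of the 46 genes 2-fold lower, 21 (45.7%) fell and 8 rose. In all, 52 of the 87 (59.8%) passed in the same direction. Of the 87, 58 reached 5 FPKM in 1 CD44lo library alone and so met the level rule through the genotype where they are high, and 35 of these passed (60.3%), beside 17 of the 29 at 5 FPKM in both (58.6%). Without chromosome 14 the share was 46.6%, with 20 of 29 higher genes (69.0%) and 7 of 29 lower genes (24.1%), so the lower genes outside that chromosome were nearer to the background of 16.9% of all member genes that fell in CD44hi. Across the 6563 genes the 2 differences had a Pearson correlation of 0.45 and a Spearman correlation of 0.21, a description over genes that share libraries.

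**Figure D5:**
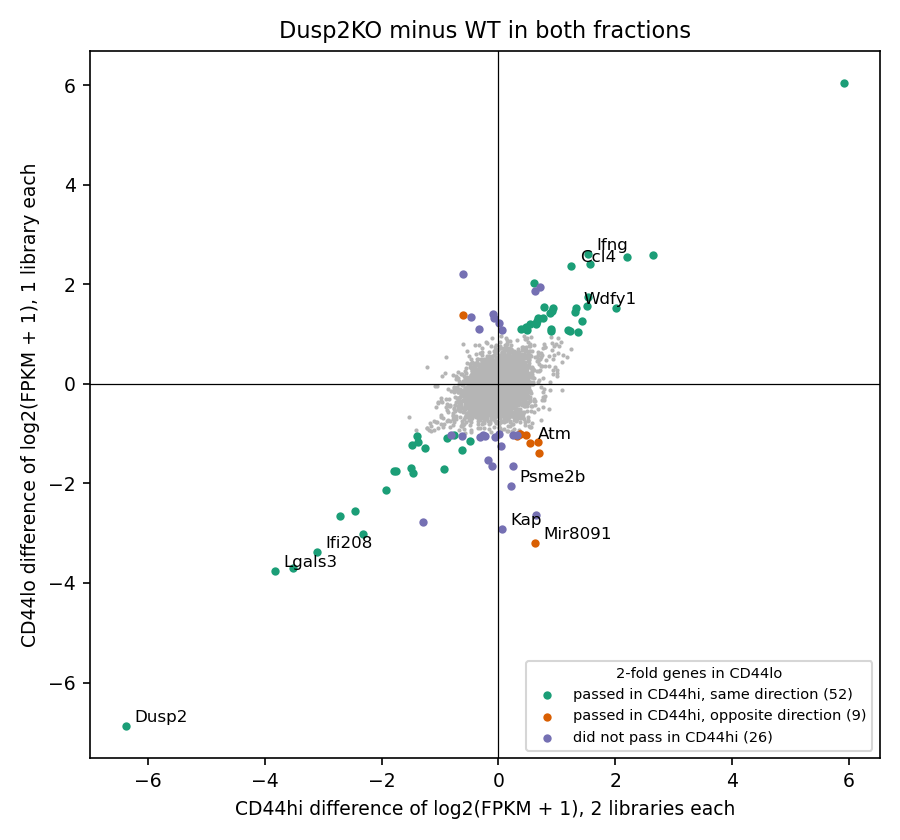
CD44lo difference (vertical axis, 1 library per genotype) against CD44hi difference (horizontal axis, 2 libraries per genotype) of log2(FPKM + 1), 1 point per gene. Of the 87 genes 2-fold apart in CD44lo, 52 passed in CD44hi in the same direction, 9 in the opposite direction, among them Atm and Mir8091, and 26 did not pass.

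The difference between the CD44lo and the CD44hi genotype differences was estimated in limma as an interaction over all 6 libraries. Each CD44lo arm is 1 library whose spread was taken from the CD44hi pairs, so the calls describe these libraries and do not test the CD44lo difference. Dusp2KO CD44hi also differs in Xist from Dusp2KO CD44lo, so within the knockout the fraction and whatever set Xist apart cannot be told apart. The fit called 144 genes (1.49%) with the higher and 265 (2.73%) with the lower difference in CD44lo, and 322 of the 6563 member genes. With the length trend removed from each library the calls were 17 and 66, and they ran from 116 to 1413 higher and 228 to 1633 lower when single CD44hi libraries were left out. The estimates were 1.06 for Ifng, 0.84 for Ccl3, 1.12 for Ccl4 and 1.19 for Cxcr3, and none of these 4 was called with the length trend removed. H3c1 (1.41) and Gzmc, a granzyme gene with a CD44lo difference of 0.67 (estimate 1.21), are given as values only, since they were named for their size.

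Among genes with the lower difference in CD44lo were 2 long genes, named for the size of this estimate. Atm, the kinase of the DNA double-strand break response, was at 3.61 and 9.46 FPKM in Dusp2KO and WT CD44lo, and in CD44hi at 10.3 and 10.8 FPKM (knockout) against 7.36 and 6.65 FPKM (WT). Knockout was below WT in CD44lo and above both WT libraries in CD44hi (estimate -1.71, or -1.44 with the length trend removed). Ankhd1, an ankyrin repeat protein gene, was at 3.53 and 9.13 FPKM in CD44lo. In CD44hi it was at 11.1 and 10.9 FPKM (knockout) against 7.56 and 5.52 FPKM (WT). The order was the same (estimate -1.84, or -1.62 with the length trend removed).

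Markers of other cell types were summed in the CD44lo libraries, and their part in the differences was not tested. Of the 9 NK cell markers measured, 6 were at 0 in both, and the sum was carried by Nkg7 (334 and 323 FPKM), which CD8+ T cells also express. The summed level of 7 macrophage and monocyte markers was 2.92 FPKM in Dusp2KO and 2.85 FPKM in WT, that of 4 granulocyte markers 0 and 0.152 FPKM, that of 3 erythroid markers 0.375 and 0.226 FPKM, that of 5 markers of CD4 and regulatory T cells 0.691 and 0.966 FPKM, and that of 4 γδ T cell markers 3.41 and 1.41 FPKM. The B cell sum, 152 and 143 FPKM, rested on Ighm (140 and 134 FPKM), while Cd79b was at 11.2 and 6.92 FPKM. The dendritic cell sum, 393 and 410 FPKM, rested on Bst2 (386 and 405 FPKM), which interferon induces in many cells, and that of stroma and endothelium, 9.96 and 14.5 FPKM, on Pecam1.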

How the data were processed

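Mouse CD8+ T cell RNA was sequenced in bulk, with 1 library each of Dusp2KO and WT CD44lo and 2 each in CD44hi. The authors deposited FPKM values per gene in 1 table. The aligner HISAT2 2.0.5 and the builds hg38 and mm39 are listed, with no role for either build, per the submitters' processing notes. For the counter and annotation: not given in the sources used here. The description also names 10X Genomics. All columns matched a sample title (0 unused). Separate animals or cultures are not stated for the libraries. The p-values therefore measure the spread between these samples, which may be technical. They give no sequencing date or batch.

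FPKM values were whole multiples of what 1 read is worth. Among genes detected in at least 2 libraries, all 16220 gave whole reads within 1e-08, and 95.7% of 6472 member lengths equalled the exon union of GENCODE vM21. Recovered reads served for intervals, depths and the floor of 3 reads and did not enter a test. Symbols were matched to RefSeq GRCm38.p6 (99.9%) for chromosome and gene type, and no coordinates of that build were joined to the files. Of the member rows, 6 share a symbol with another row.

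The CD44lo difference was log2(FPKM + 1) of Dusp2KO minus WT, also minus the median of the 200 genes nearest in level and length. Tests were limma 3.58.1 (R 4.3.3) with a variance trend on log2(FPKM + 1) of the 9691 genes averaging 1 FPKM or more, two-sided, Benjamini-Hochberg adjustment at 0.05, on the 4 CD44hi libraries for the CD44hi difference and on all 6 for the interaction (2 residual degrees of freedom). The scripts were tested on simulated data. Named were the 12 largest differences each way against like genes (without predicted genes and receptor segments), Dusp2, Rpa1, Cd44 and Xist, up to 4 members per list and the 5 largest interactions each way past the threshold. Other genes named, mostly further list members, were chosen after their values were seen. Members, 24 pathway lists, 12 marker lists and rules were chosen with earlier results of these data known. Alternatives were other pseudocounts, minimums, scalings and neighbour numbers, thinned reads, libraries left out, a replicate block, no variance trend and a length trend (loess, span 0.5) removed.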

Additional observations from a re-analysis of the deposited data

Results flagged for a closer look

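The interaction test of the CD44lo against the CD44hi genotype difference (limma, Benjamini-Hochberg adjustment) passed for 27 of 125 named genes, 16 with the higher and 11 with the lower difference in CD44lo, and 10 of the 27 passed with the length trend removed. Passing was partly fixed by the choice, since the named genes include the largest CD44lo differences and the largest interactions past the threshold. Over all 6563 member genes 322 passed (4.91%). The values are interaction estimates in log2 units. The higher ones were Rpl19-ps11 (1.56), H3c1 (1.41), Snord34 (1.39), Snora41 (1.21), Gzmc (1.21), Cxcr3 (1.19), Ccl4 (1.12), Ifng (1.06), Rpl37a (0.87), Ccl3 (0.84), Hopx (0.83), Rpl37 (0.78), Ly6c2 (0.68), Cox7c (0.67), Cd83 (0.64) and Nfkbid (0.55). The lower ones were Top2a (-0.64), Samd9l (-0.64), Utp20 (-0.76), Pmaip1 (-0.82), Tsr1 (-0.87), Parp14 (-0.90), Atm (-1.71), Ankhd1 (-1.84), Psme2b (-2.27), Kap (-2.99) and Mir8091 (-3.81). Of these, Mir8091, Kap and Psme2b rested on 1, 4 and 76 reads in Dusp2KO CD44lo, and Snord34 on 20 reads there and 15 reads in WT. Each sets 1 library per genotype in CD44lo, whose spread is assumed, against 2 per genotype in CD44hi, so the calls describe these libraries. The knockout libraries of the 2 fractions also differ in Xist, as said above.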

How the results depend on the processing

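No library could be left out of the CD44lo pair, which has 1 per genotype. The 2-fold counts of 41 higher and 46 lower became 106 and 108 with a minimum of 1 FPKM or with none, and 22 and 20 with 10 FPKM. The lower count was 28 with a mean of at least 5 FPKM, 89 with columns rescaled to a total of 1000000 (which moved the median of all genes by -0.10), and 29 without segments and mitochondrial genes or, chosen after seeing the data, without chromosome 14, where the share passing in CD44hi was 46.6%. That share was 58.6% to 69.0% with each CD44hi library left out. The interaction counts of 144 higher and 265 lower were 17 and 66 with the length trend removed, 17 and 22 with no filter, 25 and 92 with no variance trend, 250 higher with a mean of at least 5 FPKM, 415 lower with median-ratio scaling and 43 higher with the total of 1000000 (added after seeing the data). Leaving out each CD44hi library gave 116 to 1413 higher and 228 to 1633 lower, with 1413 and 1633 without WT CD44hi replicate 1 and 913 and 821 without WT CD44hi replicate 2. With 2 residual degrees of freedom these counts are weak guides, and the cause of these moves was not tested.

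The list medians kept their sign in all settings run for them for effector, naive, interferon, S phase and mitochondrial genes. Not run for list medians were thinned reads, genes left out and a mean of at least 5 FPKM. Beyond the spread of the replicate pairs, naive genes moved from -0.25 to -0.36 with the total of 1000000 and to -0.18, -0.18, -0.16 and -0.30 against 200, 100 and 400 genes of like level and length and 200 of like level. Interferon genes moved to -0.35 with the total of 1000000. S phase genes moved from 0.30 to 0.27 (minimum of 10 FPKM), 0.33 (quantile normalization), 0.21 (total of 1000000) and 0.33 (200 and 400 like genes). Mitochondrial genes moved from 0.55 to 0.32 (quantile normalization), 0.45 (total of 1000000), 0.39, 0.39 and 0.40 (200, 100 and 400 like genes) and 0.43 (200 genes of like level). Other signs were seen with a minimum of 10 FPKM for virtual memory (-0.11) and inhibitory receptors (0.05), with a minimum of 1 FPKM for ERK feedback (0.02), with the total of 1000000 for ribosome biogenesis (-0.02), in 5 settings for p53 targets (down to -0.10), and with no filter (0.006) and median-ratio scaling (0.003) for TNF family genes, whose median was -0.02. Of the 33 named genes at 2-fold, 30 to 33 stayed past it in every setting run.

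Replicate numbers are shared by the CD44hi pairs. Over 6563 genes the deviations of same-numbered libraries correlated at 0.06 in 2 pairs. With only 2 pairs this value cannot tell whether same-numbered libraries share a batch or culture. With a replicate block the interaction counts were 744 and 821 and the share passing in CD44hi was 67.8%.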

Other observations

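Dusp2KO CD44lo did not always lie between WT CD44lo and WT CD44hi. Of the 41 genes 2-fold higher in Dusp2KO CD44lo, 28 were above both WT CD44hi libraries and 9 below both. Nfkbid, at 51.8 FPKM in Dusp2KO CD44lo against 17.3 and 16.4 FPKM in WT CD44hi, was of the first kind, and Ccl9, at 5.75 FPKM against 24.2 and 20.7 FPKM, of the second. Of the 46 genes 2-fold lower, 39 were below both WT CD44hi libraries. These genes were picked by a difference that uses the Dusp2KO CD44lo value, which partly fixes such counts. The share over all genes was not counted. Beyond the naming rule, and picked after their values were seen, Cd24a, a surface sialoglycoprotein gene, was at 9.29 and 3.90 FPKM in Dusp2KO and WT CD44lo, Zbtb32, a transcriptional repressor gene of activated lymphocytes, at 14.3 and 6.13 FPKM, and Tiparp, a poly(ADP-ribose) polymerase gene induced by the aryl hydrocarbon receptor, at 2.49 and 6.08 FPKM. Each differed in the same direction in CD44hi (limma adjusted p = 0.00203, 0.0152 and 0.0194). Klf10 (1.76 and 5.09 FPKM) and Arrdc3 (2.64 and 6.47 FPKM), a growth-restraining factor and an arrestin family gene, were lower in CD44lo and fell in CD44hi by 0.49 and 1.39 (limma adjusted p = 0.0193 and 0.00119).

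Of 218 genes higher by 0.5 or more set against like genes, 120 (55.0%) rose and 6 fell in CD44hi. Of 273 lower, 131 (48.0%) fell and 22 (8.06%) rose. Over all 6563 member genes 11.6% rose and 16.9% fell in CD44hi.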
